A study of Homo sapiens with 8 samples.

Results

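The 10 genes described here are members of the poly(ADP-ribose) polymerase (PARP) family together with PARG, the enzyme that degrades their product. They were chosen by symbol as PARP1, PARP2, PARP3, PARP4, PARP9, PARP10, PARP12, PARP14, TNKS and PARG, 10 of the 25369 named genes counted, and all 10 were among the 17714 that passed the filter on low counts. They were set into DNA repair enzymes (PARP1, PARP2, PARP3 and PARG), interferon-linked enzymes (PARP9, PARP10, PARP12 and PARP14) and a remaining pair (PARP4 and TNKS).

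PARP enzymes transfer ADP-ribose from NAD+ to proteins and nucleic acids. Some build long poly(ADP-ribose) chains at broken DNA, where the chains recruit repair factors until PARG removes them, and cells with defective BRCA1 are known for their dependence on this repair. Other members attach a single ADP-ribose unit, and several of those are transcribed in response to interferon and act in antiviral defence.

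Poly(A) RNA was sequenced from UWB1.289, an ovarian carcinoma cell line, in 4 groups of 2 libraries. UWB1.289 carries a BRCA1 mutation that truncates the protein and is called BRCA1-null, and the line called BRCA1+ is UWB1.289 transduced with BRCA1. The groups were BRCA1+ in DMSO, BRCA1+ in entinostat, BRCA1-null in DMSO and BRCA1-null in entinostat, with DMSO (the vehicle) or 0.5 uM entinostat, an inhibitor of class I histone deacetylases, given for 24 h. All groups are 1 carcinoma line and its derivative, and no source says whether the 2 libraries of a group came from separate cultures, so p-values measure only the spread between these libraries.

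Total counts per library ranged from 31900158 to 53549893, and log2 values of replicates correlated at 0.991 to 0.992 across genes, which are not independent replicates. BRCA1 itself lay at 92.4 and 98.9 CPM (counts scaled to a common library size) in BRCA1+ DMSO, at 118 and 133 CPM in BRCA1+ entinostat and between 17.6 and 22.4 CPM in the 4 BRCA1-null libraries. PAX8 and EPCAM, markers of ovarian serous epithelium, were abundant throughout (329 to 419 and 506 to 638 CPM), while WT1, another such marker, was at most 0.50 CPM. Summed leukocyte markers (10 genes) ranged from 16.7 to 25.3 CPM in BRCA1+ and from 27.1 to 39.3 CPM in BRCA1-null libraries. CD68 was the largest contributor in every library, and the lymphocyte markers CD3D and MS4A1 were at 0 counts in all 8. CD14 was lower in BRCA1-null libraries, at 0.37 to 1.96 CPM against 2.55 to 4.89 CPM in BRCA1+. The median log2 fold change of the 6 tested leukocyte markers, BRCA1-null over BRCA1+, was -0.17 in DMSO and -0.24 in entinostat. Summed fibroblast and endothelial markers (9 genes) ranged from 27.3 to 63.9 CPM in BRCA1+ and from 81.0 to 134 CPM in BRCA1-null libraries. CDH5 was at 4.15 to 27.1 CPM in BRCA1+ and 26.8 to 84.1 CPM in BRCA1-null libraries. For COL1A2 the ranges were 8.87 to 18.3 and 20.7 to 37.0 CPM, and for COL1A1 4.07 to 15.5 and 9.03 to 22.2 CPM. PECAM1 went the other way, at 3.30 to 8.51 and 2.65 to 4.18 CPM, and DCN and LUM had 0 counts in all 8. The part of these markers in the results below was not tested. One replicate difference touches the interferon-linked genes: 50 listed interferon-stimulated genes summed to 2130 CPM in BRCA1-null DMSO replicate 1 and to 1653 CPM in replicate 2, against 1441 to 1537 CPM in the 4 BRCA1+ libraries.

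In DMSO, 6 of the 10 genes differed between the lines. PARP1, PARP2, PARP3, PARP10 and PARP12 were higher in BRCA1-null cells and PARP4 was lower, by edgeR's quasi-likelihood test at an adjusted p under 0.05. Among all genes tested, 42.2% were called in this comparison, 21.1% higher and 21.0% lower. The median log2 fold change of the 10 genes was 0.37, against 0.01 for all genes tested. In entinostat, 5 of the 10 were called, with PARP1, PARP2, PARP3, PARP10 and PARP12 again higher and none lower, where 39.4% of all genes were called (20.5% higher and 18.9% lower). Here the median was 0.40 for the 10 genes and 0.02 for all genes. The comparisons of the lines in DMSO and in entinostat share no libraries, although all libraries share 1 estimate of the spread.

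**Figure D1:**
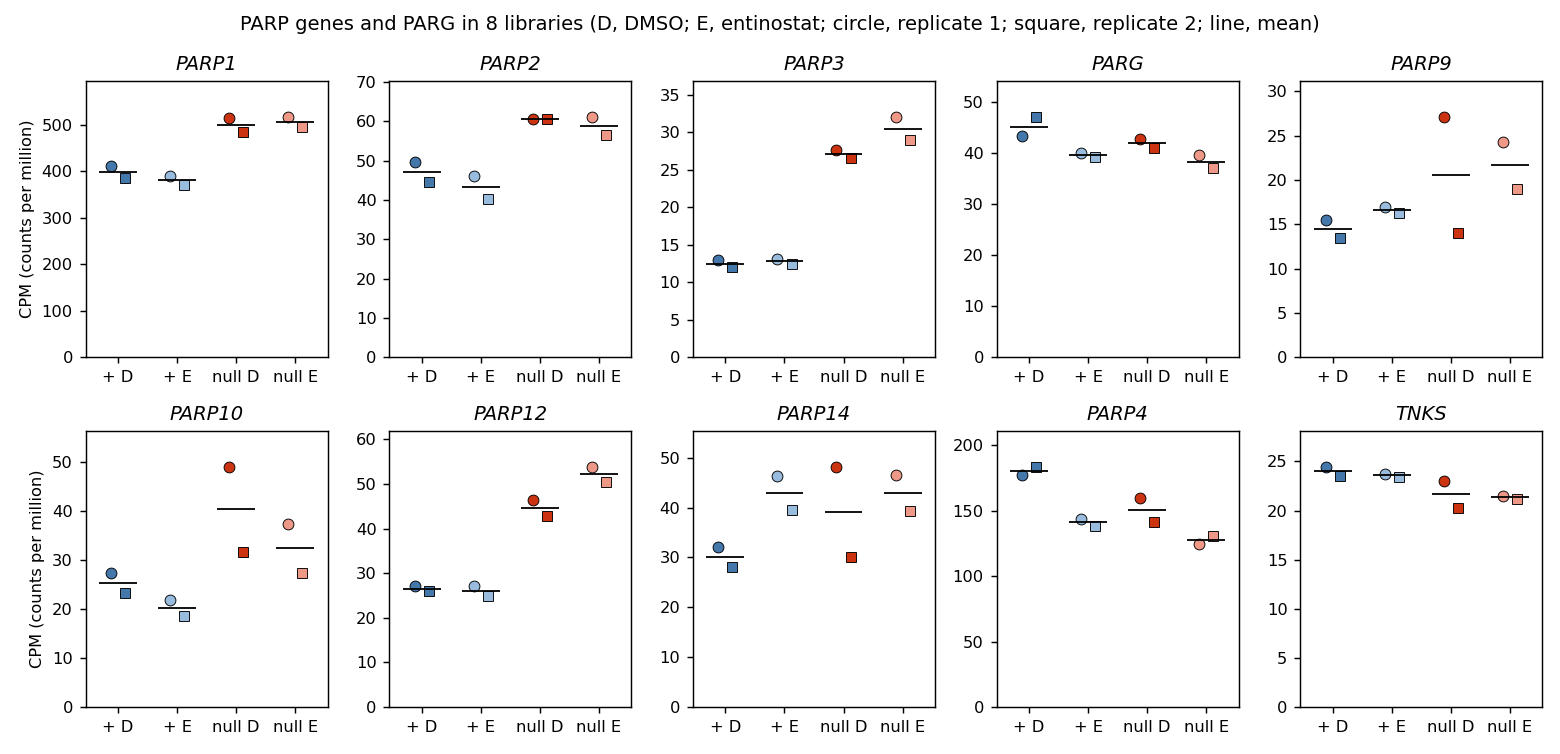
CPM of the 10 genes in the 8 libraries, with 1 panel per gene and each vertical axis starting at 0. Circles are replicate 1, squares are replicate 2 and the line is the mean of both. PARP1, PARP2, PARP3 and PARP12 show 4 BRCA1-null points above all 4 BRCA1+ points, as does PARP10 by a small margin (27.34 against 27.31 CPM). For TNKS, which did not pass the test, all 4 lie below (at most 23.1 against at least 23.4 CPM). The share of all genes that separate in this way was not counted. The BRCA1-null DMSO points of PARP9, PARP10 and PARP14 lie far apart.

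PARP1, which senses DNA strand breaks and makes most of the poly(ADP-ribose) of a damaged cell, was the most abundant of the 10 per transcript length. Its mean RPKM (CPM per kilobase of the deposited gene length) was 99.99 in BRCA1+ DMSO, 95.6 in BRCA1+ entinostat, against 126 in BRCA1-null DMSO and 127 in BRCA1-null entinostat. It made up 50.6% to 54.0% of the summed RPKM of the 10 genes in each library. The gene lies on chromosome 1 (226548392 to 226595801, minus strand, hg19, the build of all gene positions given). PARP1 was at 411 and 386 CPM in BRCA1+ DMSO, 391 and 372 in BRCA1+ entinostat, against 515 and 485 in BRCA1-null DMSO, and 517 and 495 in BRCA1-null entinostat. All 4 BRCA1-null libraries lay above all 4 BRCA1+ libraries. It differed between the lines by a log2 fold change of 0.33 ± 0.06 (SE) in DMSO (adjusted p = 0.0016), compared with 0.41 ± 0.06 in entinostat (adjusted p = 0.00049).

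PARP2, the closest relative of PARP1 and likewise activated by DNA breaks, lies on chromosome 14 (20811773 to 20826063, plus strand). It was at 49.6 and 44.7 CPM in BRCA1+ DMSO, 46.1 and 40.3 in BRCA1+ entinostat, against 60.7 in both BRCA1-null DMSO libraries, and 61.1 and 56.6 in BRCA1-null entinostat. Again no BRCA1-null library fell into the BRCA1+ range. BRCA1-null over BRCA1+ gave a log2 fold change of 0.37 ± 0.08 in DMSO (adjusted p = 0.0073), compared with 0.45 ± 0.09 in entinostat (adjusted p = 0.0028). Without BRCA1+ DMSO replicate 2 the DMSO call was lost, at a log2 fold change of 0.29 and an adjusted p of 0.059. PARP1 exceeded PARP2 by a factor of 3.79 to 4.37 in RPKM in every library.

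PARP3, a smaller break-activated enzyme that mostly adds single ADP-ribose units and takes part in end joining, lies on chromosome 3 (51976361 to 51982883, plus strand) and had the largest line difference of the 10. It was at 12.96 and 11.96 CPM in BRCA1+ DMSO, 13.2 and 12.5 in BRCA1+ entinostat, against 27.6 and 26.6 in BRCA1-null DMSO, and 32.01 and 28.9 in BRCA1-null entinostat. The lowest BRCA1-null value was well above the highest BRCA1+ value. The line difference on the log2 scale was 1.12 ± 0.09 in DMSO (2.18-fold, adjusted p = 2.2e-05), compared with 1.25 ± 0.09 in entinostat (2.39-fold, adjusted p = 1.4e-05). Of the 10 tested genes next to PARP3, 5 on each side, 6 were higher and none lower in DMSO with a median log2 fold change of 0.31, and 7 were higher and none lower in entinostat with a median of 0.39. Among all genes tested, 21.1% were higher in DMSO and 20.5% in entinostat. The share of these neighbours in the PARP3 difference was not tested.

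PARG, which cleaves poly(ADP-ribose) chains, lies on chromosome 10 (51026325 to 51371331, minus strand). It was at 43.3 and 47.0 CPM in BRCA1+ DMSO, 40.0 and 39.3 in BRCA1+ entinostat, against 42.7 and 41.0 in BRCA1-null DMSO, and 39.5 and 37.0 in BRCA1-null entinostat. These values spanned a narrow range in all groups. The line difference did not pass the test, with a log2 fold change of -0.11 ± 0.07 in DMSO (adjusted p = 0.24), compared with -0.05 ± 0.07 in entinostat (adjusted p = 0.64). PARG counts are uncertain, because the region of PARGP1, a near-identical pseudogene with 380 to 728 counts per library, overlaps that of PARG over 117424 bases and how the counting divided shared reads is not stated.

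The balance of PARP1 to PARG transcripts within a library followed these levels. Per length, PARP1 exceeded PARG by 8.76 to 10.4 times in the 4 BRCA1+ libraries and by 12.6 to 14.3 times in the 4 BRCA1-null libraries. The ranges did not overlap, and PARP1, whose line difference passed the test, contributed the larger change. The ratio itself was not tested, and its size carries the uncertainty of the PARG counts.

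**Figure D2:**
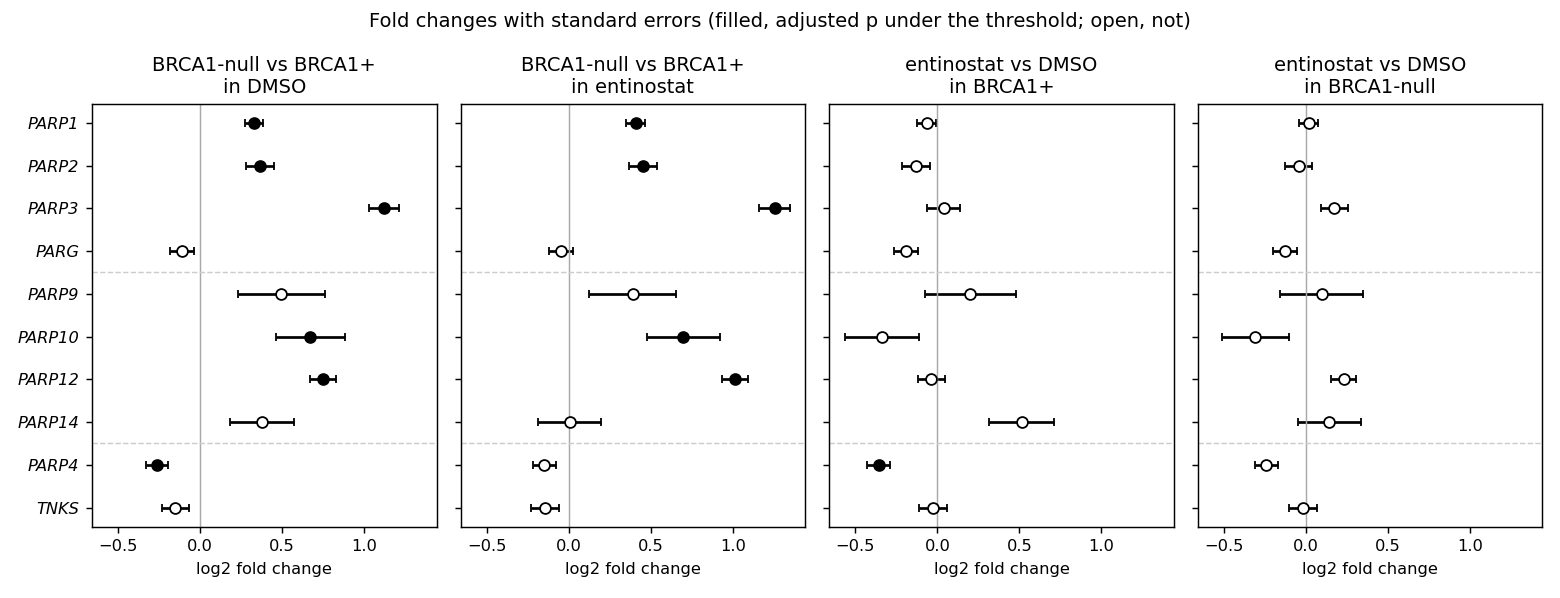
Log2 fold changes of the 10 genes (horizontal axis) with standard errors as bars in 4 comparisons, in the order DNA repair enzymes, interferon-linked enzymes, PARP4 and TNKS, separated by dashed lines. Filled points passed the test at an adjusted p under 0.05. The left panels hold 6 and 5 filled points, the third holds PARP4 at -0.36, and the right panel holds none.

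Of the interferon-linked enzymes, PARP12 and PARP10 were higher in BRCA1-null cells in both media, whereas PARP9 and PARP14 did not pass the test in either. Their promoters, read from RefSeq (GRCh38.p14), were searched because these genes are known targets of interferon. The search used the core of the interferon-stimulated response element, GAAANNGAA, on both strands of the 300 bases from 250 before to 50 after the annotated start. RefSeq promoters were at hand for 7 of the 10 genes, and PARP4, PARP10 and TNKS had none. The response element core was found in the promoters of PARP12 and PARP14 and in the second of 2 PARP9 promoters, and in none of PARP1, PARP2, PARP3 and PARG. It occurred in 8.11% of 35116 promoters and in the promoters of 24 of the 37 listed interferon-stimulated genes that had an entry. The stretches from 100 bases before to 10 bases after each start are shown 5′ to 3′ on the strand of the gene, with the response element core in capitals, for the 3 members that hold it and for DTX3L, the ubiquitin ligase partner of PARP9, which is transcribed away from PARP9 from the same stretch of DNA.
PARP12, chr7:140062942-140063051, minus strand: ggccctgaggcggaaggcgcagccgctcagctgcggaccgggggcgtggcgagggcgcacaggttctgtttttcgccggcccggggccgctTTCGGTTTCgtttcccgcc
PARP14, chr3:122680739-122680848, plus strand: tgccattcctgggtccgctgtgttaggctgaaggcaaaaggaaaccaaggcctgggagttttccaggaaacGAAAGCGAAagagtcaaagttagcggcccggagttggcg
PARP9, chr3:122564291-122564400, minus strand: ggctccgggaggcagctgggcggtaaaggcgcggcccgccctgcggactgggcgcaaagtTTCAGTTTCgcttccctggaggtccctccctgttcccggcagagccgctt
DTX3L, chr3:122564238-122564347, plus strand: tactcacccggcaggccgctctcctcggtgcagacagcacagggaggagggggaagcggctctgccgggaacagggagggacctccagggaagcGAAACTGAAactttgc
The PARP9 and DTX3L cores are the same 9 bases of the genome (chromosome 3, 122564332 to 122564340), read on opposite strands. GC boxes (GGGCGG on either strand) occurred in 45% of all promoters. They were found for PARP1, PARP2, PARP12, PARP14, DTX3L and the second PARP9 promoter, but not for PARP3 or PARG. Those of PARP9 within the stretch above are left in lower case. The same stretch of PARP1, which carried no response element core, is shown with its GC boxes in capitals.
PARP1, chr1:226408084-226408193, minus strand: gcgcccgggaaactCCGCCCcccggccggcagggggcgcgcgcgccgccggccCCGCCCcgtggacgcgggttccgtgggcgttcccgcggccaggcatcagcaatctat
A match describes the letters in these windows only, and binding was not measured.

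PARP12, a zinc finger mono-ADP-ribosyltransferase that restricts RNA viruses, lies on chromosome 7 (139723549 to 139763521, minus strand). It was at 27.1 and 25.9 CPM in BRCA1+ DMSO, 27.03 and 24.8 in BRCA1+ entinostat, against 46.4 and 42.7 in BRCA1-null DMSO, and 53.9 and 50.5 in BRCA1-null entinostat. Both BRCA1-null groups lay apart from the BRCA1+ libraries, and replicates were close. Between the lines the log2 fold change was 0.75 ± 0.08 in DMSO (adjusted p = 9.9e-05), compared with 1.01 ± 0.08 in entinostat (adjusted p = 2.1e-05). PARP1, PARP3 and PARP12 kept both line calls under all 16 alternatives that left the threshold as it was, leaving out each library included.

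PARP10, a mono-ADP-ribosyltransferase with an RNA recognition motif, lies on chromosome 8 (145051320 to 145060635, minus strand). It was at 27.3 and 23.3 CPM in BRCA1+ DMSO, 21.8 and 18.5 in BRCA1+ entinostat, against 49.0 and 31.7 in BRCA1-null DMSO, and 37.4 and 27.3 in BRCA1-null entinostat. The groups did not overlap within a medium, but replicate 1 exceeded replicate 2 in every group, as for every member except PARG and PARP4. It differed between the lines by a log2 fold change of 0.67 ± 0.21 in DMSO (adjusted p = 0.030), compared with 0.70 ± 0.22 in entinostat (adjusted p = 0.032). The DMSO call was lost without BRCA1+ DMSO replicate 1 (0.79, adjusted p = 0.053), without BRCA1+ DMSO replicate 2 (0.56, adjusted p = 0.16) and without BRCA1-null DMSO replicate 1 (0.35, adjusted p = 0.18). The entinostat call was lost without BRCA1+ entinostat replicate 1 (0.80, adjusted p = 0.067), without BRCA1+ entinostat replicate 2 (0.57, adjusted p = 0.19) and without BRCA1-null entinostat replicate 1 (0.45, adjusted p = 0.20).

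PARP9, a macrodomain protein that acts with DTX3L in interferon signalling and at DNA damage, lies on chromosome 3 (122246760 to 122283523, minus strand). It was at 15.5 and 13.4 CPM in BRCA1+ DMSO, 16.9 and 16.3 in BRCA1+ entinostat, against 27.1 and 14.0 in BRCA1-null DMSO, and 24.3 and 19.0 in BRCA1-null entinostat. BRCA1-null DMSO replicate 2 fell among the BRCA1+ DMSO libraries and replicate 1 stood far above them. BRCA1-null over BRCA1+ gave a log2 fold change of 0.49 ± 0.27 in DMSO (adjusted p = 0.16), compared with 0.39 ± 0.26 in entinostat (adjusted p = 0.28). Without BRCA1-null DMSO replicate 1 the DMSO value was -0.03, and without replicate 2 it was 0.91 (adjusted p = 0.0029). The entinostat value passed the test at 0.39 without BRCA1-null DMSO replicate 2 (adjusted p = 0.046) and at 0.38 in the fit on only the groups compared (adjusted p = 0.045).

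PARP14, a macrodomain mono-ADP-ribosyltransferase linked to interleukin signalling, lies on the same chromosome (122399672 to 122449687, plus strand). It was at 31.99 and 28.1 CPM in BRCA1+ DMSO, 46.4 and 39.6 in BRCA1+ entinostat, against 48.2 and 30.1 in BRCA1-null DMSO, and 46.6 and 39.3 in BRCA1-null entinostat. The entinostat libraries of the 2 lines were nearly level, and the BRCA1-null DMSO replicates lay far apart, as those of PARP9 did. The line difference on the log2 scale was 0.38 ± 0.20 in DMSO (adjusted p = 0.15), compared with 0.01 ± 0.19 in entinostat (adjusted p = 0.99). The DMSO value was 0.02 without BRCA1-null DMSO replicate 1 and 0.68 without replicate 2 (adjusted p = 0.0066).

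The spread between replicates differed among the 4 interferon-linked enzymes. The log2 difference of replicate 1 over replicate 2 in BRCA1-null DMSO was 0.95 for PARP9, 0.68 for PARP14, 0.63 for PARP10 and 0.12 for PARP12, and 0.09 for PARP1. DTX3L was at 50.2 and 33.9 CPM in BRCA1-null DMSO, against 33.2 and 26.2 in BRCA1+ DMSO, and its line difference of 0.50 ± 0.21 missed the threshold (adjusted p = 0.081). It passed without BRCA1-null DMSO replicate 2 (0.76, adjusted p = 0.019). IRF9, the DNA-binding subunit of an interferon-activated transcription factor, was higher in BRCA1-null DMSO at 1.47 ± 0.28 (adjusted p = 0.0027).

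Of the 50 interferon-stimulated genes, a list that leaves out the PARP genes, 48 were tested. In DMSO 28 were higher and 2 lower in BRCA1-null cells with a median log2 fold change of 0.72, and in entinostat 19 were higher and 2 lower with a median of 0.58. Among all genes tested, 21.1% were higher and 21.0% lower in DMSO, and 20.5% and 18.9% in entinostat. IFITM1, a membrane protein that blocks virus entry, rose by 2.98 ± 0.42 on the log2 scale in DMSO (adjusted p = 0.00051), and GBP1, an interferon-induced GTPase, was at -1.54 ± 0.23 (adjusted p = 0.00067). Leaving out libraries moved these counts. The DMSO count of higher genes was 16 without BRCA1-null DMSO replicate 1, 13 without BRCA1+ DMSO replicate 2 and 33 without BRCA1-null DMSO replicate 2. The entinostat count was 10 without BRCA1+ entinostat replicate 2 and 12 without BRCA1-null entinostat replicate 1.

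**Figure D3:**
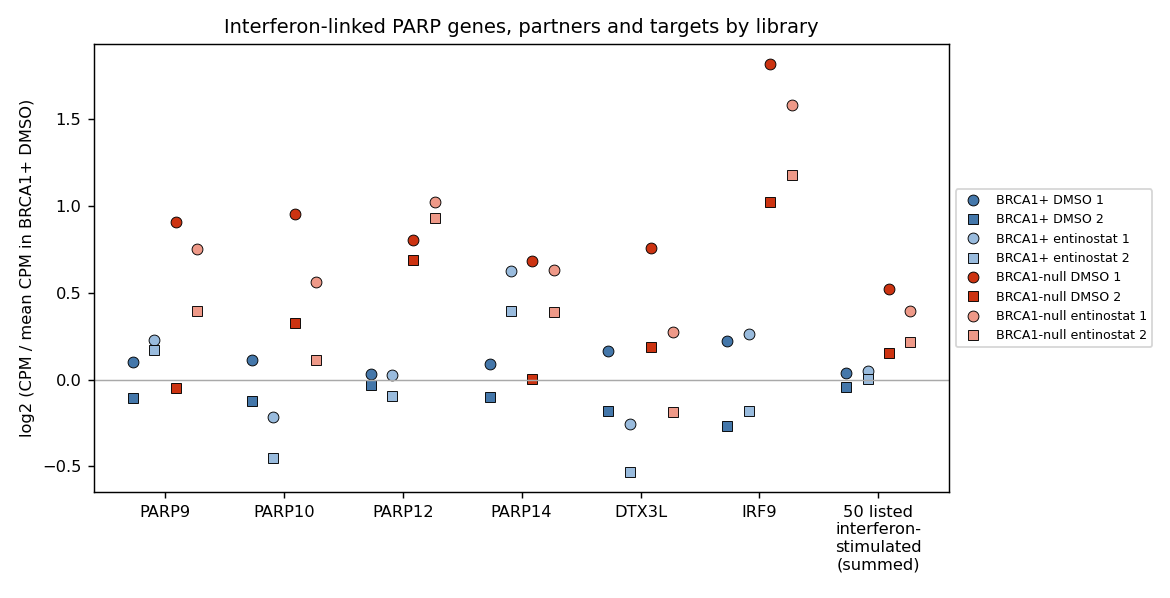
Level of the 4 interferon-linked PARP genes, of DTX3L and IRF9, and of 50 listed interferon-stimulated genes summed, as log2 of the CPM over the mean CPM of BRCA1+ DMSO (vertical axis). Each point is 1 library, coloured by group. BRCA1-null DMSO replicate 1 (dark red circle) lies well above replicate 2 (dark red square) for PARP9, PARP10, PARP14 and IRF9, while the PARP12 pair differs by 0.12.

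PARP4, which ADP-ribosylates within the cytoplasmic vault particle, lies on chromosome 13 (24995069 to 25086948, minus strand) and fell with entinostat in BRCA1+ cells. It was at 178 and 184 CPM in BRCA1+ DMSO, 144 and 138 in BRCA1+ entinostat, against 160 and 141 in BRCA1-null DMSO, and 124 and 130 in BRCA1-null entinostat. Both entinostat groups lay below the DMSO group of their line, and both BRCA1-null groups below the BRCA1+ group of their medium. Between the lines the log2 fold change was -0.26 ± 0.07 in DMSO (adjusted p = 0.014), compared with -0.15 ± 0.07 in entinostat (adjusted p = 0.13). The DMSO call was lost without BRCA1+ DMSO replicate 2 (-0.24, adjusted p = 0.072) and without BRCA1-null DMSO replicate 2 (-0.17, adjusted p = 0.11).

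TNKS (tankyrase), a poly(ADP-ribose) polymerase that marks axin and the telomere protein TERF1, lies on chromosome 8 (9413445 to 9639856, plus strand). It was at 24.5 and 23.6 CPM in BRCA1+ DMSO, 23.7 and 23.4 in BRCA1+ entinostat, against 23.1 and 20.3 in BRCA1-null DMSO, and 21.5 and 21.2 in BRCA1-null entinostat. It varied the least of the 10 genes over the 8 libraries, with an SD of 0.09 in log2 CPM against 0.60 for PARP3. Its line difference was -0.15 ± 0.08 in DMSO (adjusted p = 0.19), compared with -0.14 ± 0.09 in entinostat (adjusted p = 0.22).

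The effect of entinostat was compared within each line. In BRCA1+ cells 1 of the 10 was called, PARP4, which fell by 0.36 ± 0.07 on the log2 scale (adjusted p = 0.011), where 14.1% of all genes were called (8.13% higher and 6.00% lower). Of those calls 57.6% were higher, or 72.5% with upper-quartile scaling. The PARP4 call was lost without BRCA1+ DMSO replicate 2 (-0.33, adjusted p = 0.069), without BRCA1+ entinostat replicate 1 (-0.38, adjusted p = 0.053) and without BRCA1+ entinostat replicate 2 (-0.33, adjusted p = 0.090). PARP14 had the largest difference, 0.51 ± 0.20, which missed the threshold (adjusted p = 0.12) and passed it without BRCA1-null DMSO replicate 1 (adjusted p = 0.025), without replicate 2 (adjusted p = 0.026), in the DESeq2 Wald test (adjusted p = 0.018) and in the fit on only the groups compared (adjusted p = 0.019). For the DNA repair enzymes the log2 fold changes were -0.06 ± 0.06 for PARP1, -0.13 ± 0.09 for PARP2, 0.04 ± 0.10 for PARP3 and -0.19 ± 0.07 for PARG (adjusted p from 0.12 to 0.85). The remaining values were 0.20 ± 0.28 for PARP9, -0.34 ± 0.23 for PARP10, -0.04 ± 0.08 for PARP12 and -0.03 ± 0.09 for TNKS.

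In BRCA1-null cells none of the 10 was called, where 10.8% of all genes were called (7.57% higher and 3.19% lower). At an unadjusted p under 0.05 there were 2, PARP4 at -0.24 ± 0.07 (adjusted p = 0.057) and PARP12 at 0.23 ± 0.08 (adjusted p = 0.086). Of all 17714 genes 4856 had such an unadjusted p. The DESeq2 Wald test called 1 of the 10, PARP4 (adjusted p = 0.034), and 1669 of all genes. The DNA repair enzymes lay at 0.02 ± 0.06 for PARP1, -0.04 ± 0.08 for PARP2, 0.17 ± 0.08 for PARP3 and -0.13 ± 0.07 for PARG. The others lay at 0.10 ± 0.25 for PARP9, -0.31 ± 0.21 for PARP10, 0.14 ± 0.19 for PARP14 and -0.02 ± 0.09 for TNKS. The entinostat and line comparisons share libraries, so their values are not independent.

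Whether entinostat acted differently in the 2 lines was tested by the interaction, the entinostat effect in BRCA1-null minus that in BRCA1+ cells. None of the 10 genes passed, and neither did any of the 17714 tested (0%). Of the 17714, 827 had an unadjusted p under 0.05, no larger share than this threshold gives without any interaction. The DESeq2 Wald test called 11 of all genes and the edgeR likelihood ratio test 18. Among the 10, PARP12 had an unadjusted p under 0.05, with an interaction of 0.27 ± 0.11 (adjusted p = 0.97). PARP14 was at -0.37 ± 0.28 (adjusted p = 0.97), the largest in size.

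The genes around PARP9 gave a further pattern. Per length, the ratio of PARP9 to DTX3L was 0.34 and 0.37 in BRCA1+ DMSO, 0.49 and 0.57 in BRCA1+ entinostat, against 0.39 and 0.30 in BRCA1-null DMSO, and 0.49 and 0.53 in BRCA1-null entinostat. All 4 entinostat libraries lay above all 4 DMSO libraries. PARP9 did not pass the entinostat test in either line, and neither did DTX3L, at -0.39 ± 0.22 in BRCA1+ (adjusted p = 0.28), compared with -0.43 ± 0.21 in BRCA1-null cells (adjusted p = 0.22). The genes overlap by 339 bases on opposite strands, and the library kit does not mark strand, so reads from that stretch cannot be assigned.

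**Figure D4:**
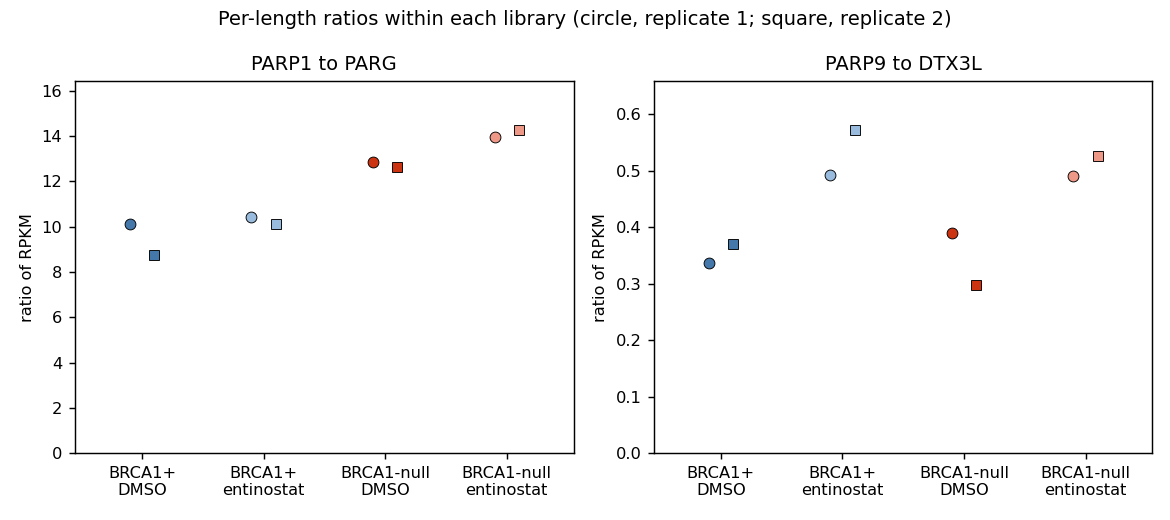
Ratio of RPKM within each library for PARP1 to PARG (left) and PARP9 to DTX3L (right), with both vertical axes starting at 0 and circles and squares for replicates 1 and 2. PARP1 to PARG separates the lines (at most 10.4 in BRCA1+, at least 12.6 in BRCA1-null), and PARP9 to DTX3L separates the media (at most 0.39 in DMSO, at least 0.49 in entinostat). The ratios were not tested.

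The wider family and the pathway around it were read from lists. Of the 8 other PARP genes 7 were tested, and 3 (PARP6, PARP16 and TIPARP) were higher in BRCA1-null cells in each medium, with none lower. Among all genes tested, 21.1% were higher and 21.0% lower in DMSO, and 20.5% and 18.9% in entinostat. The PARP16 call was lost in DMSO without BRCA1+ DMSO replicate 2 (0.48, adjusted p = 0.076) and without BRCA1-null DMSO replicate 2 (0.61, adjusted p = 0.051), and in entinostat without BRCA1+ entinostat replicate 2 (0.58, adjusted p = 0.12) and without BRCA1-null entinostat replicate 1 (0.65, adjusted p = 0.060). PARP6, a mono-ADP-ribosyltransferase, was 0.69 ± 0.11 higher in DMSO on the log2 scale (adjusted p = 0.00087). TIPARP, a target and repressor of the aryl hydrocarbon receptor, was 0.34 ± 0.07 higher in DMSO (adjusted p = 0.0029). TIPARP was the list's single called gene under entinostat in each line, where 14.1% (BRCA1+) and 10.8% (BRCA1-null) of all genes were called. It was at 90.6 and 94.5 CPM in BRCA1+ DMSO, 108 and 109 in BRCA1+ entinostat, against 122 and 112 in BRCA1-null DMSO, and 133 and 144 in BRCA1-null entinostat. The entinostat libraries lay above the DMSO libraries of each line, by 0.23 ± 0.07 in BRCA1+ (adjusted p = 0.047), compared with 0.25 ± 0.06 in BRCA1-null cells (adjusted p = 0.043). The BRCA1+ call was lost without any of the 4 BRCA1+ libraries (0.20 to 0.26, adjusted p up to 0.19), and the BRCA1-null call without any of the 8 libraries (0.19 to 0.30, adjusted p up to 0.23). Without the filter on low counts both were lost too, at adjusted p of 0.061 and 0.055, as was the BRCA1-null call in the fit on only the groups compared (0.22, adjusted p = 0.11). TNKS2, the second tankyrase, was at -0.17 ± 0.09 between the lines in DMSO (adjusted p = 0.14), and ZC3HAV1, the antiviral zinc finger PARP, passed in no comparison.

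Among 20 genes of base excision and single-strand break repair, 6 were higher and 6 lower in BRCA1-null DMSO (median 0.01). In entinostat 9 were higher and 4 lower (median 0.17). Over all genes tested, 21.1% were higher and 21.0% lower in DMSO, and 20.5% and 18.9% in entinostat. XRCC1, the scaffold that poly(ADP-ribose) recruits to nicks, was lower by -0.37 ± 0.06 in DMSO (adjusted p = 0.0011), compared with -0.36 ± 0.06 in entinostat (adjusted p = 0.0013). OGG1, the glycosylase of oxidised guanine, was lower by -0.91 ± 0.10 and -0.88 ± 0.11 (adjusted p = 0.00014 and 0.00021). The entinostat count of higher genes fell to 2 without BRCA1+ entinostat replicate 1, 3 without BRCA1+ entinostat replicate 2, 4 without BRCA1-null entinostat replicate 1 and 6 without BRCA1-null entinostat replicate 2, and the DMSO count to 4 without either BRCA1+ DMSO library and 2 without BRCA1-null DMSO replicate 2. Under entinostat 5 of the 20 were lower and none higher in BRCA1+ cells, and 2 were lower and none higher in BRCA1-null cells. The shares of all genes were 6.00% lower and 8.13% higher in BRCA1+ cells, and 3.19% and 7.57% in BRCA1-null cells. The count of 5 in BRCA1+ cells was 0 or 1 without any of the 4 BRCA1+ libraries, and the count of 2 in BRCA1-null cells was 0 without BRCA1-null DMSO replicate 2 or BRCA1-null entinostat replicate 1. LIG3, the ligase bound to XRCC1, fell by 0.35 ± 0.09 in BRCA1+ cells (adjusted p = 0.029) and lost the call without each of the 4 BRCA1+ libraries (-0.39 to -0.30, adjusted p up to 0.19). TDP1, which frees DNA ends from trapped topoisomerase, was at -0.50 ± 0.09 in BRCA1+ cells (adjusted p = 0.0092) and lost the call without BRCA1+ DMSO replicate 2 (adjusted p = 0.060) and without BRCA1+ entinostat replicate 1 (adjusted p = 0.073).

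Of 17 tested cofactors, readers and erasers of ADP-ribose, 3 were higher and 3 lower in BRCA1-null DMSO (median -0.04). In entinostat 4 were higher and 2 lower (median 0.00). Among all genes tested, 21.1% were higher and 21.0% lower in DMSO, and 20.5% and 18.9% in entinostat. None of the 17 was called under entinostat in either line, where 14.1% (BRCA1+) and 10.8% (BRCA1-null) of all genes were called. H2AFY, a macrohistone gene, was lower at -0.71 ± 0.05 in DMSO (adjusted p = 7.3e-06), compared with -0.64 ± 0.05 in entinostat (adjusted p = 1.4e-05). C4orf27, which encodes HPF1, the factor that directs PARP1 to serine, was at -0.17 ± 0.10 in DMSO (adjusted p = 0.21), compared with -0.33 ± 0.10 in entinostat (adjusted p = 0.028), the latter lost without any of the 4 entinostat libraries (-0.35 to -0.30, adjusted p up to 0.13) and in the DESeq2 Wald test (adjusted p = 0.078). Without BRCA1+ DMSO replicate 2, 1 of the 17 was higher and 1 lower in DMSO, and without BRCA1+ entinostat replicate 2, 2 were higher and 1 lower in entinostat. ADPRHL2, the hydrolase that removes ADP-ribose from serine, passed in no comparison.

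Among 15 tested genes of NAD supply and use, 4 were higher and 2 lower in BRCA1-null DMSO (median -0.07). In entinostat 3 were higher and 5 lower (median -0.03). The shares of all genes tested were 21.1% higher and 21.0% lower in DMSO, and 20.5% and 18.9% in entinostat. The count of 5 lower in entinostat was 1 without BRCA1+ entinostat replicate 1, 0 without BRCA1+ entinostat replicate 2, 1 without BRCA1-null entinostat replicate 1, 2 without BRCA1-null entinostat replicate 2 and 3 without BRCA1-null DMSO replicate 2. NMNAT1, the nuclear enzyme that completes NAD synthesis, was higher in DMSO by 0.67 ± 0.14 (adjusted p = 0.0038). It was at 14.5 and 14.4 CPM in BRCA1+ DMSO, 16.9 in both BRCA1+ entinostat libraries, against 19.3 and 26.5 in BRCA1-null DMSO, and 16.5 and 16.6 in BRCA1-null entinostat. Its BRCA1-null DMSO libraries stood apart from the other 6. Under entinostat in BRCA1-null cells its log2 fold change of -0.47 missed the threshold (adjusted p = 0.054). It passed in the DESeq2 Wald test (adjusted p = 0.023), the edgeR likelihood ratio test (adjusted p = 0.020) and with the replicate block (adjusted p = 0.020). Without single libraries the value ranged from -0.70 to -0.22. NMNAT2, the cytoplasmic form, was at 9.15 and 7.21 CPM in BRCA1+ DMSO, 26.9 and 28.0 in BRCA1+ entinostat, against 11.3 and 11.0 in BRCA1-null DMSO, and 23.7 and 17.9 in BRCA1-null entinostat. It was higher in every entinostat library than in any DMSO library, by 1.76 ± 0.15 in BRCA1+ (adjusted p = 0.00042), compared with 0.90 ± 0.14 in BRCA1-null cells (adjusted p = 0.0073), the latter at an adjusted p of 0.050 and 0.89 without BRCA1-null DMSO replicate 2. NAMPT, the rate-limiting enzyme of NAD salvage, was at 0.14 ± 0.09 between the lines in DMSO (adjusted p = 0.23). SARM1, an NAD-cleaving enzyme, was higher by 0.84 ± 0.16 in DMSO (adjusted p = 0.0028), and NADK, which phosphorylates NAD, was at -0.27 ± 0.05 (adjusted p = 0.0038).

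Among 8 tankyrase substrates and partners, 1 was higher and 1 lower in each line comparison, with medians of -0.07 in DMSO and -0.06 in entinostat. The shares of all genes tested were 21.1% higher and 21.0% lower in DMSO, and 20.5% and 18.9% in entinostat. None of the 8 was called under entinostat, where 14.1% (BRCA1+) and 10.8% (BRCA1-null) of all genes were called. USP25, a deubiquitinase that stabilises tankyrase, was higher by 0.97 ± 0.07 in DMSO (adjusted p = 8.3e-06), at 111 and 105 CPM in BRCA1-null DMSO against 52.9 and 57.7 in BRCA1+ DMSO. The lower gene, NUMA1 at -0.25 ± 0.07 in DMSO (adjusted p = 0.013), lost its call without BRCA1+ DMSO replicate 1 (-0.24, adjusted p = 0.056) and without BRCA1-null DMSO replicate 2 (-0.18, adjusted p = 0.10). Under entinostat 2 of the 48 interferon-stimulated genes were higher and none lower in each line, a count that moved when libraries were left out. The shares of all genes were 8.13% higher and 6.00% lower in BRCA1+ cells, and 7.57% and 3.19% in BRCA1-null cells. The higher genes included UBE2L6, the ISG15-conjugating enzyme, at 1.70 ± 0.16 in BRCA1+ (adjusted p = 0.00047), compared with 1.22 ± 0.14 in BRCA1-null cells (adjusted p = 0.0021).

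**Figure D5:**
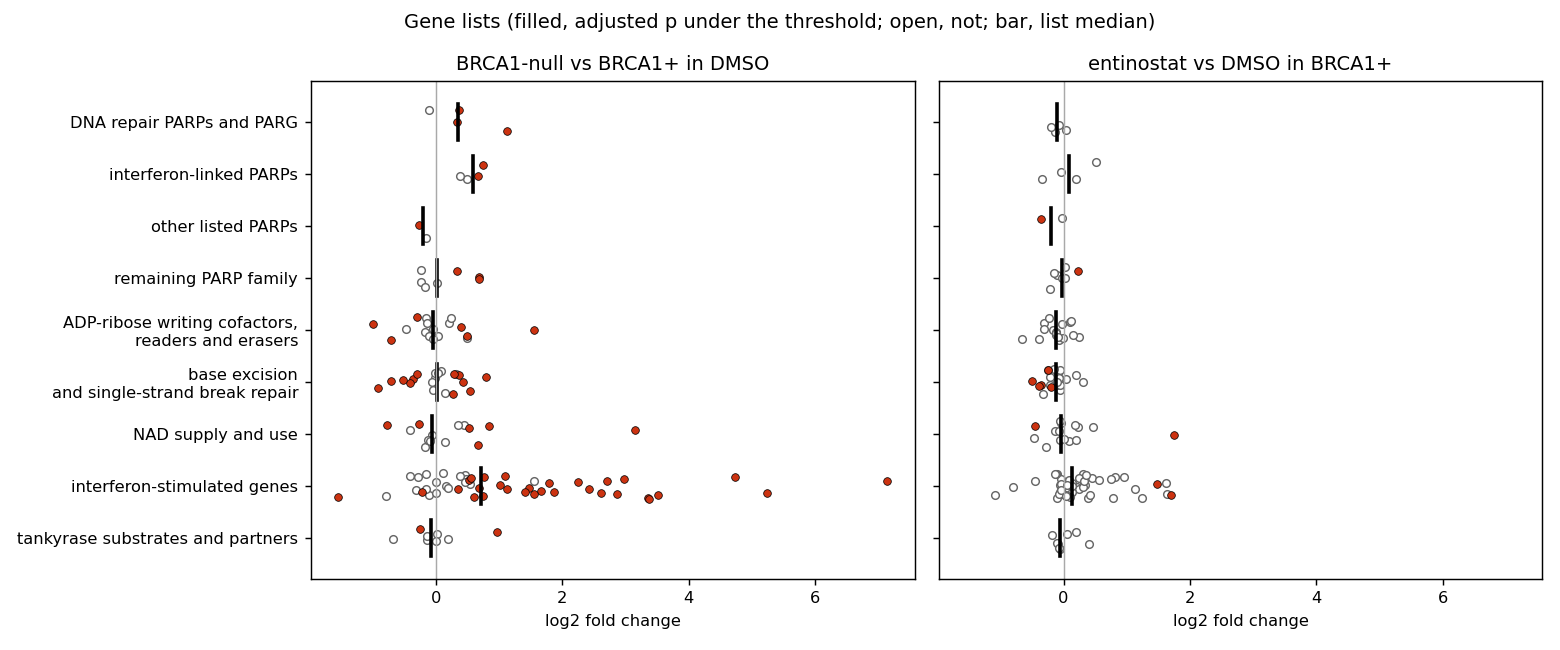
Log2 fold changes (horizontal axis) of the genes of 9 lists, for BRCA1-null against BRCA1+ in DMSO (left) and entinostat against DMSO in BRCA1+ cells (right). Each point is 1 gene, filled points passed the test at an adjusted p under 0.05 and the bar is the list's median. The interferon-stimulated genes have a median of 0.72 on the left and 0.14 on the right, and the lists of the remaining PARP family, ADP-ribose factors, repair, NAD and tankyrase partners have medians between -0.13 and 0.02.

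The genes whose profile over the 8 libraries was most like each member were found by the root mean square difference in log2 CPM after each gene's mean was removed, over 11821 genes. For PARP1 the closest was SUPT16H, a histone chaperone subunit, at 0.029, followed by RUVBL1 and BECN1. STX1A was closest to PARP3 at 0.062, SGOL1 to PARP2 at 0.043 and WDR70 to PARG at 0.027. For PARP9 the closest were SAMHD1, a restriction factor that degrades nucleotides, at 0.12, then AGPAT9 and the ubiquitin-like ISG15, at 0.14. PARP10 was closest to SHISA3 at 0.082 and next to DTX3L at 0.12, PARP12 to RPL36A at 0.067, PARP14 to C7orf60 at 0.086, PARP4 to ASXL2 at 0.033 and TNKS to NUP160 at 0.025. The distances are smaller where a member varied less, so they do not rank the members.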

How the data were processed

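RNA from 8 libraries of UWB1.289 cells was measured by poly(A) RNA sequencing. The authors deposited 1 table of raw read counts per gene, which they had made by aligning reads to hg19 with TopHat 2 and counting with NGSUtils. The settings of the counting (strand, reads with several positions) are not given in the sources used here. Groups and replicate numbers came from the titles, and no library was left out. The 1 entry without a gene name held 0 counts.

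Counts were tested with edgeR 4.0.16 in R 4.3.3, after filterByExpr and TMM scaling. The quasi-likelihood model held all 8 libraries with 1 coefficient for each of the 4 groups, so 4 residual degrees of freedom remained. Tests were two-sided, p-values were adjusted by Benjamini and Hochberg over the 17714 genes tested, and a gene was called at an adjusted p under 0.05. RPKM used the gene lengths of the deposited table, so levels between genes depend on how these were defined. The floor allowed by 0 counts, taken as 3, equals 0.0552 to 0.0946 CPM in these libraries and covers counting error only.

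The members and gene lists were chosen with earlier results of these data known, and the lists were compiled from general knowledge. Named genes were the members, direct partners (DTX3L, C4orf27, XRCC1, LIG3, ADPRHL2, TNKS2, TIPARP, ZC3HAV1, NAMPT, NMNAT1 and IRF9, with 1 further partner not reported here), the 3 genes most like each member (mean log2 CPM 2 or above), and the called genes of each list with the largest change in each direction, with the same minimum level and groups that did not overlap. Values of some genes of the last kind are not given. Alternatives were other scalings and filters, edgeR's likelihood ratio test, DESeq2 1.42.0 (Wald), the replicate number as a block, a fit on only the groups compared, an added fold threshold (1 on the log2 scale), and the omission of each library. The fit was also run on simulated counts with planted line differences. These counts were drawn from the fitted spread, so that run cannot speak to the replicate differences described above.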

Additional observations from a re-analysis of the deposited data

How the results depend on the processing

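Alternatives are counted by how many of the 10 genes were called. Between the lines, PARP1, PARP3 and PARP12 kept their calls under the 16 alternatives that left the threshold as it was. Requiring a log2 fold change of at least 1 in size as well left 1 gene called in DMSO (PARP3, from 6) and 2 in entinostat (PARP3 and PARP12, from 5). It left 0 for entinostat in BRCA1+ cells (from 1). Of all 17714 genes it left 2204, 1864 and 516 in these 3 comparisons. For entinostat in BRCA1+ cells the DESeq2 Wald test and the fit on only the groups compared called 2, and 2495 and 2546 of all 17714 genes. For entinostat in BRCA1-null cells (from 0) the stricter filter, the DESeq2 Wald test and the edgeR likelihood ratio test called 1. Over all genes they called 1820 (of 14901), 1669 and 2452 (both of 17714). With the replicate number as a block, 7 and 5 genes were called between the lines in DMSO and in entinostat, and 3 for entinostat in each line. Over all 17714 genes the block raised the calls of these 4 comparisons from 7472 to 8956, 6975 to 8398, 2503 to 4314 (BRCA1+) and 1906 to 3640 (BRCA1-null), and 1 gene was called for the interaction. The block also called DTX3L between the lines (adjusted p = 0.00051 for 0.49 with DMSO, and 0.0016 for 0.44 with entinostat) and under entinostat (-0.38, adjusted p = 0.0093 in BRCA1+, and -0.43, adjusted p = 0.0047 in BRCA1-null cells), and TNKS2 and NAMPT between the lines in DMSO. The numbers are not said to mark a shared culture or day, and replicate differences of the groups correlated at 0.052 to 0.29 across genes. Leaving out 1 library gave 3 to 7 of the 10 in DMSO, where 5312 to 7387 of all genes were called, and 0 to 2 for entinostat in BRCA1+ cells, where 676 to 2413 were called; a group left with 1 library is assumed to vary like the others.

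Some values changed sign, and not all of them were small. The larger ones were PARP9 between the lines in DMSO (0.49) and PARP10 under entinostat in BRCA1-null cells (-0.31). For PARP14 between the lines in entinostat the value was -0.0054 with DESeq2 size factors, -0.011 in the Wald test, -0.00066 in the likelihood ratio test, -0.0061 with the block, -0.0059 with only the groups compared and -0.12 to 0.12 without single libraries. Upper-quartile factors gave 0.011 for PARP12 and 0.022 for TNKS under entinostat in BRCA1+ cells, and only the groups compared gave -0.0056 for PARP1 in BRCA1-null cells. Without single libraries, PARP9 between the lines in DMSO ranged from -0.026 to 0.91. Under entinostat in BRCA1+ cells PARP3 ranged from -0.020 to 0.096, PARP12 from -0.091 to 0.024 and TNKS from -0.053 to 0.0020. In BRCA1-null cells the ranges were -0.027 to 0.047 for PARP1, -0.10 to 0.0092 for PARP2, -0.32 to 0.61 for PARP9, -0.60 to 0.012 for PARP10, -0.16 to 0.49 for PARP14 and -0.11 to 0.050 for TNKS. Causes were not tested, and upper-quartile factors moved the higher share of all calls for entinostat in BRCA1+ cells from 57.6% to 72.5%. With 2 libraries a group, differences near the standard errors (in DMSO between the lines 0.06 for PARP1 and 0.27 for PARP9) were not resolved.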
